A study of Homo sapiens with 4 samples.

Results

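ZFP36, ZFP36L1, ZFP36L2, ZC3H12A and ELAVL1 encode RNA-binding proteins that set how long cytokine transcripts last. They were taken by gene symbol, and all 5 were present among the 36601 gene rows of both libraries and passed the filter on low counts. The cells were microglia-like cells derived from the human embryonic stem cell line H9 (an established line) through a monocyte-like stage, and then held for 7 days in microglia medium. There were 4 conditions with 3 cultures each. SemaLPS cultures received 2 µM semagacestat, an inhibitor of the γ-secretase protease complex, for 22 h and 200 ng/mL bacterial lipopolysaccharide (LPS) for the last 6 h. LPS cultures received DMSO and LPS, Sema cultures received semagacestat and PBS, and Ctrl cultures received DMSO and PBS. All came from 1 cell line. Cells of all 4 conditions were collected with actinomycin D at 5 µM, which blocks new transcription. The stated questions were what loss of γ-secretase activity does to microglial expression and whether LPS, which acts without that protease, overrides it.

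The proteins of the ZFP36 family (ZFP36 itself is also called tristetraprolin) hold adjacent CCCH zinc fingers that bind AU-rich elements in 3′ untranslated regions, and bring in the CCR4-NOT deadenylase so that the transcript loses its poly(A) tail. ZC3H12A, known as regnase-1, is an endoribonuclease that cuts stem-loops in the 3′ untranslated regions of transcripts such as IL6, and it is itself removed after Toll-like receptor signalling. ELAVL1, known as HuR, binds AU-rich and U-rich sequence and generally stabilises what it binds. In macrophages LPS is known to induce both the cytokine transcripts and several of the proteins that clear them.

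The AU-rich sites concerned are short, so the densest 30-base window of the 3′ untranslated region is shown for 3 target cytokines and for the members that have one. Capitals mark the pentamer ATTTA, the core of an AU-rich element.
TNF: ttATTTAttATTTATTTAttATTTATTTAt
IL1B: gagcaaccgcttccctATTTATTTATTTAt
CXCL8: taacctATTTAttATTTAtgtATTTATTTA
ZFP36: gggccctttATTTAtgacgactttATTTAt
ZFP36L1: agcttATTTAacttatcaaaacgtATTTAt
ZFP36L2: ctcaatatgaaaactATTTAacttATTTAt
ELAVL1: ttATTTAtacctATTTAtgtATTTATTTAt
All are read 5′ to 3′ along the transcript in the GENCODE release 29 annotation of GRCh38. The windows lie at chr6:31578000-31578029 on the plus strand (TNF), chr2:112830002-112830031 on the minus strand (IL1B), chr4:73743108-73743137 on the plus strand (CXCL8), chr19:39409184-39409213 on the plus strand (ZFP36), chr14:68788347-68788376 on the minus strand (ZFP36L1), chr2:43223459-43223488 on the minus strand (ZFP36L2) and chr19:7961839-7961868 on the minus strand (ELAVL1).

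The 3 ZFP36 family genes and ELAVL1 carry in their own transcripts the pentamer that such proteins bind. ZFP36 held 5 copies of ATTTA in 713 bases, ZFP36L1 8 in 1871, ZFP36L2 5 in 1917 and ELAVL1 13 in 4904, against 9 in 799 bases for TNF. The longer form TATTTAT, which contains the pentamer, was found 3 times in each of the 3 family genes, 5 times in ELAVL1 and 8 times in TNF. ZC3H12A had neither motif in its 768 bases. Matches were sought on the transcribed strand, overlaps counted, in 1 annotated transcript per gene. Among 18919 protein-coding genes 64.4% had at least 1 ATTTA and 28.8% at least 1 TATTTAT, so the pentamer is common, and a match is a description of letters.

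The files held 28943 barcodes. After hashtags were assigned and low-quality cells removed, 15054 cells remained, 1053 to 1664 per culture, with 30433501 to 51783420 UMIs (counted molecules) per culture. The median cell of a culture held 27408 to 31422 UMIs. Of barcode sequences, 91 occurred in both libraries and 11 among kept cells. Microglia and macrophage markers were all detected (9 of 9 passed the filter on low counts), with a summed level of 5500 to 5834 CPM (a gene's UMIs relative to all UMIs of the culture, the counts scaled to a common total) in SemaLPS, 5328 to 5635 in LPS, 6219 to 6481 in Sema and 6017 to 6297 in Ctrl. Monocyte markers (7 of 7 passed) summed to 1322 to 1453 in SemaLPS, 1358 to 1407 in LPS, 465 to 523 in Sema and 435 to 501 in Ctrl. Cells with a UMI of the mitotic genes MKI67 or TOP2A made up 22.1 to 25.7% in SemaLPS, 19.1 to 23.5% in LPS, 39.4 to 45.9% in Sema and 35.4 to 42.8% in Ctrl. Cells lost for more than 10% mitochondrial UMIs were 22.6 to 32.1% in SemaLPS, 20.2 to 31.8% in LPS, 27.0 to 37.5% in Sema and 31.4 to 39.2% in Ctrl. The part of the monocyte marker levels and of the mitochondrial losses in the results was not tested. B cell markers were at or near 0 (0 of 5 passed the filter), as were erythroid and megakaryocyte markers (0 of 8, with HBG1, HBG2 and HBA2 at 0 UMIs). Of the granulocyte and mast cell list 2 of 7 genes passed (MPO and ELANE were at 0 UMIs), of the pluripotent list 2 of 6 (TDGF1 at 0) and of the neural list 3 of 7 (DCX and AQP4 at 0, TUBB3 at a mean of 6.35 and OLIG2 at 2.68 CPM). Of 6 endothelial genes 2 passed, nearly all of the sum being PECAM1, which myeloid cells also express (mean 60.4 CPM, with CDH5 at 0.0481). Of 6 fibroblast genes 2 passed, with sums of 2.05 to 3.58 CPM in SemaLPS, 3.78 to 5.16 in LPS, 2.62 to 6.03 in Sema and 2.99 to 29.2 in Ctrl. Of 7 T and NK cell genes 5 passed. The list summed to 287 to 336 CPM in SemaLPS and 314 to 403 in LPS. In Sema it summed to 87.2 to 90.9 and in Ctrl to 93.4 to 100. Most of the sum was IL7R, a cytokine receptor gene that activated myeloid cells also use (mean 188 CPM). NKG7 averaged 21.2 CPM and CD3D 0.238.

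LPS changed 4 of the 5 genes, and not in a common direction. ZC3H12A rose 9.54-fold and ELAVL1 1.28-fold, ZFP36L1 and ZFP36L2 fell to 0.680 and 0.566 of their Ctrl level, and ZFP36 itself, the family member usually described as LPS-induced, differed by 1.11-fold and did not pass the test. LPS moved much of the transcriptome here: 59.1% of the 15099 genes tested were called in LPS against Ctrl (30.3% higher, 28.9% lower), and 61.2% in SemaLPS against Sema. A count of 4 of 5 is read against that background. Cultures of LPS and Ctrl did not overlap for 63.4% of all genes. The culture levels below are CPM after TMM scaling, which evens out differences in library composition, and tests are edgeR quasi-likelihood tests with p adjusted over all 15099 genes. The cultures of a condition are called biological replicates, with no word on whether they came from separate differentiations, so the tests rest on the spread among these 12 cultures, which may be technical. In bulk sums of this kind, fewer cells with a transcript and less of it per cell cannot be told apart, so shares of cells are given beside the levels.

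**Figure D1:**
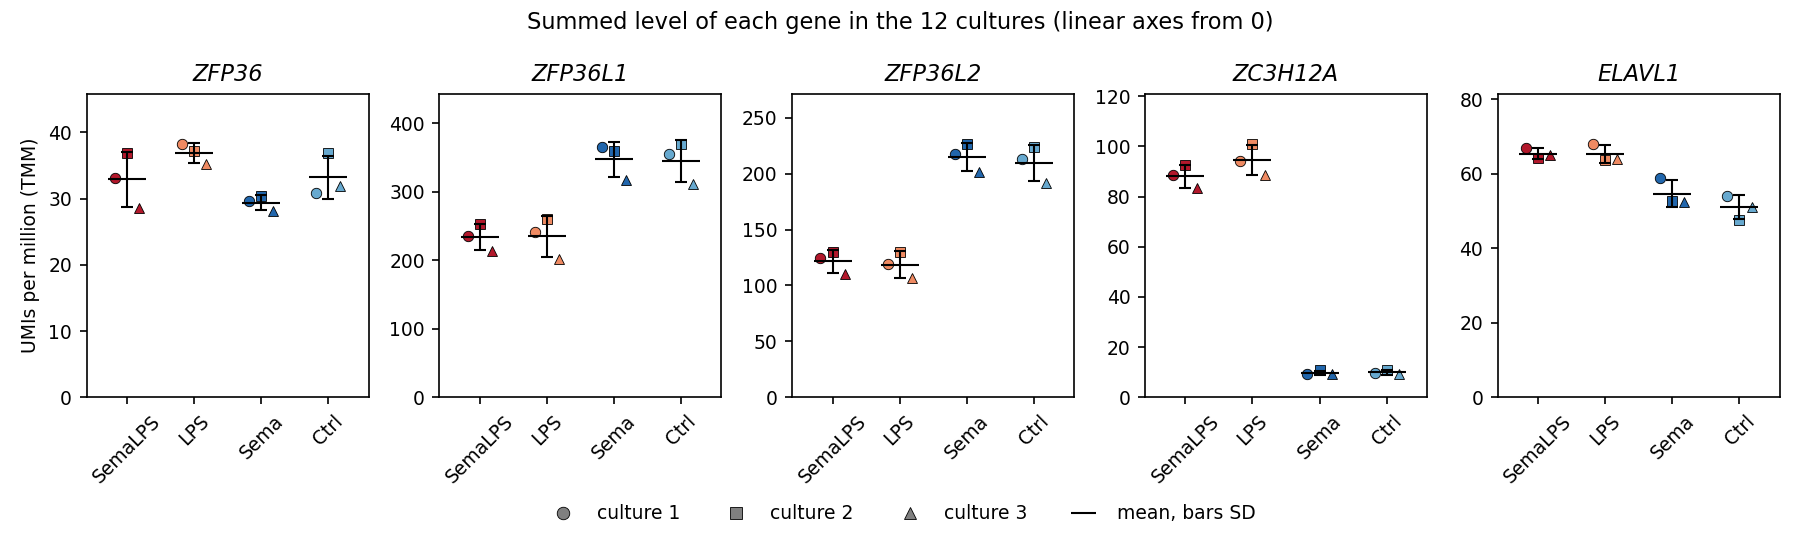
Level of each gene (CPM after TMM scaling, linear axes from 0) in the 12 cultures, with SemaLPS, LPS, Sema and Ctrl running left to right; shapes mark the culture number, and the bar and whiskers give mean and SD of 3 cultures. ZC3H12A stands at 83.2 to 101 in LPS-treated cultures and 9.18 to 11.0 in the others, while ZFP36 overlaps between conditions.

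ZC3H12A, the endoribonuclease, showed the largest change of the 5. It had 94.2, 101 and 88.7 CPM in the LPS cultures numbered 1, 2 and 3, against 9.59, 11.0 and 9.18 in the Ctrl cultures. It had 88.5, 92.5 and 83.2 in SemaLPS, against 9.38, 10.8 and 9.42 in Sema. All 6 LPS-treated cultures thus stood far above the 6 others, with no overlap. The log2 fold change was 3.25 (SE 0.08, adjusted p = 7.65e-13) in LPS against Ctrl, higher than that of 98.8% of all genes tested, and 3.16 (SE 0.08, adjusted p = 7.78e-13) in SemaLPS against Sema. The gene lies at chr1:37474552-37484379 on the plus strand.

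The rise of ZC3H12A was spread over most cells. Between 74.4 and 78.5% of cells in LPS cultures had at least 1 UMI of it, and 74.7 to 76.6% in SemaLPS, against 20.7 to 23.3% in Sema and 21.1 to 23.6% in Ctrl. LPS-treated cells also held more UMIs, so every cell was thinned to 10000 UMIs (403 shallower cells were left out). The share was then 50.7 ± 3.0% in LPS against 9.58 ± 0.83% in Ctrl (SD, n = 3), and 48.9 ± 1.7% in SemaLPS against 9.32 ± 0.82% in Sema. The mean per cell was 2.48 to 2.96 UMIs with LPS and 0.287 to 0.34 without, and 2.38 to 4.42% of LPS-treated cells held 10 or more UMIs, against 0% of the others. In unthinned counts, and at those unlike means, the 10% of cells with most ZC3H12A held 33.1 to 34.3% of its UMIs with LPS and 57.5 to 63.2% without. The 3 genes whose log2 levels followed it most closely over the 12 cultures, among 5280 genes, were B4GALT5, a galactosyltransferase gene, NFE2L2, which encodes the oxidative stress factor NRF2, and GCH1, the first enzyme of tetrahydrobiopterin synthesis, with Pearson r of 0.999 each. Those levels share the same cells and the LPS contrast, and 59.1% of all genes were called in it.

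**Figure D2:**
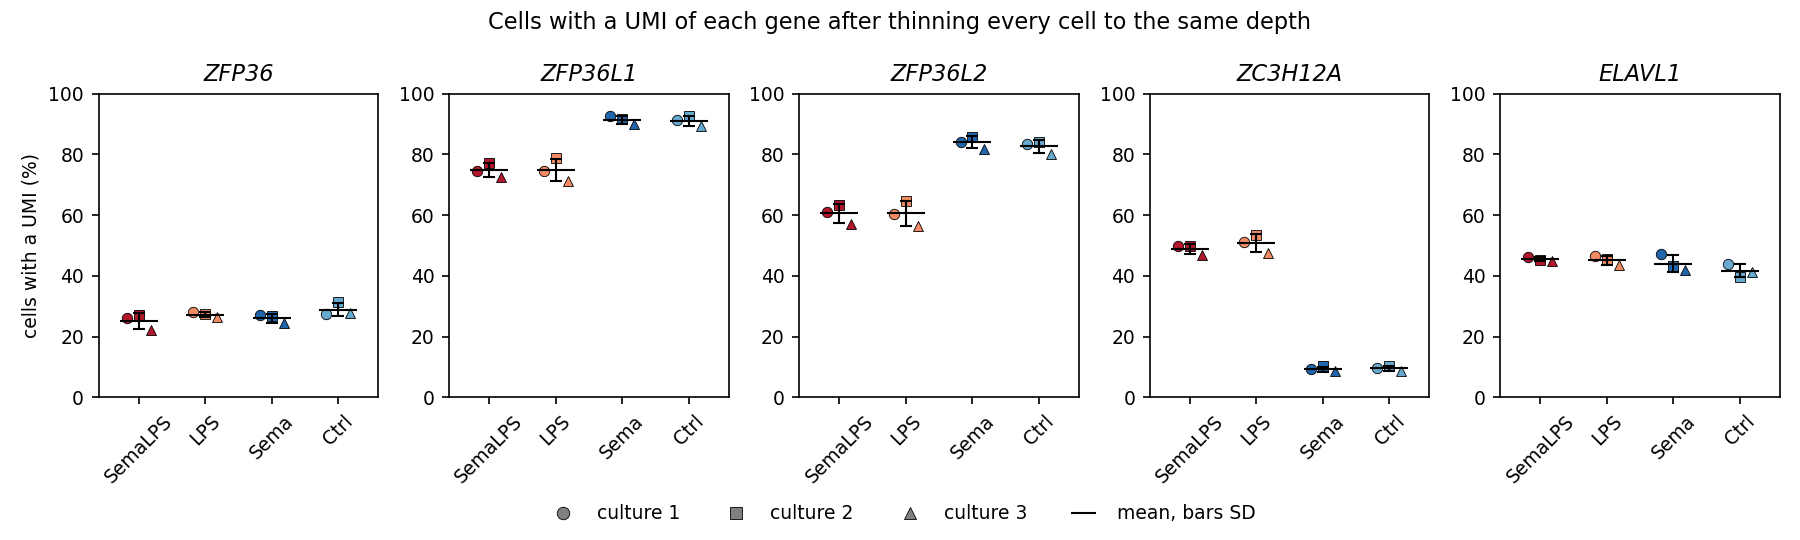
Percent of cells with at least 1 UMI of each gene after every cell was thinned to 10000 UMIs, by condition from SemaLPS (left) to Ctrl (right); shapes mark the culture number, and the bar and whiskers give mean and SD of 3 cultures. For ZC3H12A the LPS-treated cultures lie at 46.9 to 53.4% and the others at 8.56 to 10.4%, and for ZFP36L1 and ZFP36L2 the LPS-treated cultures lie below the others.

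ZFP36L1 and ZFP36L2, the family members that lymphocytes and progenitors also rely on, both fell. ZFP36L1 had 241, 261 and 203 CPM in LPS, against 355, 369.6 and 311 in Ctrl, and 236, 252.3 and 214 in SemaLPS, against 365, 359 and 318 in Sema. Every LPS-treated culture was below every other culture. The log2 fold change was -0.56 (SE 0.09, adjusted p = 0.000148) in LPS against Ctrl and -0.57 (SE 0.09, adjusted p = 0.000113) in SemaLPS against Sema. It is annotated at chr14:68787660-68796253 on the minus strand.

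ZFP36L2 fell further, and again without overlap. It had 119, 130.2 and 106 CPM in LPS, against 213, 224 and 192 in Ctrl. In SemaLPS it had 124, 129.7 and 110.5, against 218, 226 and 202 in Sema. The log2 fold change was -0.82 (SE 0.08, adjusted p = 9.72e-07) in LPS against Ctrl and -0.82 (SE 0.08, adjusted p = 8.59e-07) in SemaLPS against Sema. The gene is at chr2:43222402-43226609 on the minus strand. Both genes were lowest in the culture numbered 3 in each of the 4 conditions, so the same-numbered cultures carried a shared offset on top of the LPS change.

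Fewer cells had a UMI of these family members after LPS. Thinned to 10000 UMIs, ZFP36L1 was found in 74.8 ± 3.8% of LPS cells against 91.0 ± 1.6% of Ctrl cells, and ZFP36L2 in 60.6 ± 4.2% against 82.6 ± 2.1% (SD, n = 3). Without thinning the shares were 92.4% against 98.1% for ZFP36L1 and 87.3% against 96.7% for ZFP36L2, so the size of these differences depends on the depth. For ZFP36L1 the mean was 5.96 to 7.65 UMIs per cell with LPS and 9.74 to 11.4 without. For ZFP36L2 it was 3.13 to 3.89 with LPS and 6.00 to 7.12 without. In unthinned counts the 10% of cells with most ZFP36L1 held 31.0 to 33.4% of its UMIs with LPS and 24.3 to 26.1% without. The part of the lower mean in that difference was not tested. The genes whose pattern was nearest to ZFP36L1 were the immediate-early gene FOS (Pearson r = 0.991), the chromatin remodeller CHD9 (0.988) and ZFP36L2 (0.985). Nearest to ZFP36L2 were the TGF-β receptor gene TGFBR1, the macrophage transcription factor MAF and the calcium-regulated factor NFATC2 (r = 0.994, 0.994 and 0.993 over the 12 cultures).

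ZFP36 gave the smallest difference with LPS. It had 38.2, 37.2 and 35.2 CPM in LPS, against 30.8, 36.9 and 31.9 in Ctrl, and 33.2, 36.9 and 28.6 in SemaLPS, against 29.7, 30.4 and 28.1 in Sema. The highest Ctrl culture, numbered 2, lay among the LPS values, and each LPS-treated culture was above its same-numbered partner after TMM scaling. That order depended on the scaling. Relative to total UMIs alone, LPS-2 (1283 of 36231135) was below Ctrl-2 (1228 of 30892735) and LPS-3 (1332 of 41294226) below Ctrl-3 (1081 of 32024006). SemaLPS-1 and SemaLPS-3 were likewise below Sema-1 and Sema-3, while LPS-1 and SemaLPS-2 stayed above their partners. The log2 fold change was 0.15 (SE 0.09, adjusted p = 0.150) in LPS against Ctrl and 0.17 (SE 0.09, adjusted p = 0.108) in SemaLPS against Sema. With the culture number as a block both comparisons passed (0.15, SE 0.06, adjusted p = 0.0245, and 0.16, SE 0.06, adjusted p = 0.0178), in a fit that called 65.2 and 67.7% of all genes. The first blocked call was lost without the culture Ctrl-1, LPS-1 or LPS-3 in turn (adjusted p = 0.201, 0.126 and 0.075). The second was lost without Sema-2, SemaLPS-1 or SemaLPS-2 (0.122, 0.0548 and 0.146). In cells with no UMI of MKI67 or TOP2A the LPS difference without the block was 0.08 (adjusted p = 0.403).

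At the level of cells ZFP36 had few UMIs per cell in every condition. Thinned to 10000 UMIs it was found in 25.1 ± 2.8% of SemaLPS cells, 27.3 ± 0.74% of LPS cells, 26.0 ± 1.4% of Sema cells and 28.9 ± 2.1% of Ctrl cells (SD, n = 3). The thinned share in LPS was 1.62 percentage points below that in Ctrl. Without thinning, ZFP36 was found in 49.4 to 56.1% of SemaLPS cells and 54.8 to 57.3% of LPS cells. The unthinned range was 50.0 to 54.9% in Sema and 56.6 to 60.4% in Ctrl. The mean was 0.851 to 1.12 UMIs per cell with LPS and 0.868 to 1.13 without. The nearest patterns to ZFP36 were those of the ubiquitin ligase gene RNF111 (r = 0.905), the histone methyltransferase gene KMT2B (0.867) and WIPF2, an actin regulator (0.846). The gene spans chr19:39406813-39409412 on the plus strand.

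The make-up of the family was set out as each gene's share of the UMIs of ZFP36, ZFP36L1 and ZFP36L2. ZFP36 gave 9.59, 8.69 and 10.2% of the family's UMIs in LPS, against 5.15, 5.86 and 5.97% in Ctrl, and 8.42, 8.82 and 8.09% in SemaLPS, against 4.85, 4.93 and 5.14% in Sema. The LPS-treated cultures lay wholly above the others. The difference of 3.84 percentage points in LPS against Ctrl had p = 0.1 in a two-sided exact permutation test, which is the smallest p that 3 against 3 cultures can give. ZFP36L2 gave 30.4 ± 0.53% of the family's UMIs in LPS against 35.6 ± 0.20% in Ctrl (SD, n = 3), and ZFP36L1 held 60.1 ± 1.1% against 58.7 ± 0.57%. These are shares of counted 3′ ends, which also depend on how well each 3′ end is captured.

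ELAVL1, the stabilising factor, rose modestly. It had 68.0, 63.8 and 64.0 CPM in LPS, against 54.1, 47.7 and 51.2 in Ctrl, and 66.9, 64.3 and 65.1 in SemaLPS, against 58.8, 52.7 and 52.5 in Sema. After TMM scaling no LPS-treated culture overlapped with the others, and that depended on the scaling. Relative to total UMIs alone, Sema-1 (2177 of 33923076) stood above every LPS-treated culture, the highest being LPS-1 (2439 of 38900259). On that scale each LPS culture was still above its same-numbered Ctrl culture, while SemaLPS-1 was below Sema-1. The log2 fold change, after TMM scaling, was 0.36 (SE 0.05, adjusted p = 7.49e-05) in LPS against Ctrl and 0.26 (SE 0.05, adjusted p = 0.000892) in SemaLPS against Sema. It was 0.42 (adjusted p = 8.17e-06) in LPS against Ctrl among cells with no MKI67 or TOP2A UMI. The thinned share of cells with a UMI was 45.1 ± 1.4% in LPS against 41.6 ± 2.2% in Ctrl (SD, n = 3), with overlapping cultures. Its nearest patterns were POLD2, a DNA polymerase subunit, MED30, a Mediator subunit, and ADSL, a purine synthesis enzyme (r = 0.990, 0.990 and 0.983). It is annotated at chr19:7958579-8005659 on the minus strand.

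Shares of cells were tested in 20 comparisons (5 genes, 4 contrasts) by two-sided exact permutation over cultures. The exact permutation test could not go below p = 0.1 in any of them, which becomes an adjusted p of 0.286. That smallest p was reached by ZFP36L1, ZFP36L2 and ZC3H12A in both LPS comparisons and by ZFP36 in Sema against Ctrl. No cell type that should lack these genes was present in the pool, so a level of background from free RNA could not be read from the shares.

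**Figure D3:**
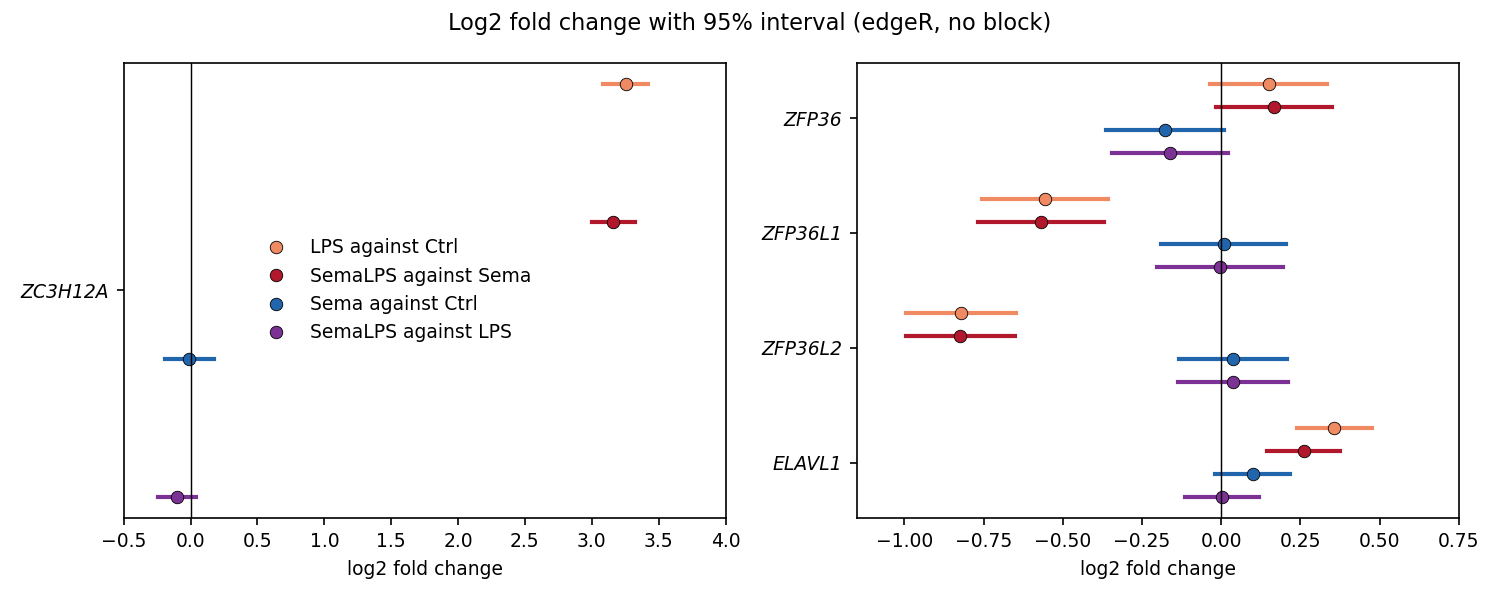
Log2 fold change (dot) and 95% interval (line) of ZC3H12A (left) and the other genes (right) in LPS against Ctrl, SemaLPS against Sema, Sema against Ctrl and SemaLPS against LPS, from the edgeR fit of 12 cultures without a block; the horizontal axes differ between the panels. ZC3H12A sits at 3.25 and 3.16 with LPS, and every interval of an inhibitor comparison includes 0.

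The inhibitor left the 5 genes without a call in the planned comparisons. None passed in Sema against Ctrl or in SemaLPS against LPS, where 0.0132% of genes were called in each (2 of 15099), nor with the block, which called 3.4 and 1.91% of genes. At an unadjusted p under 0.05, 1076 and 822 of all genes would be counted in these comparisons without the block. The 95% intervals bound what could have been missed: for ZFP36L1 the log2 fold change was 0.01 (-0.19 to 0.21) in Sema against Ctrl and -0.0045 (-0.20 to 0.19) in SemaLPS against LPS. For ZFP36L2 it was 0.04 (-0.13 to 0.21) and 0.04 (-0.14 to 0.21). For ZC3H12A it was -0.01 (-0.19 to 0.17) and -0.10 (-0.24 to 0.04), the second with adjusted p = 0.103 with the block. For ELAVL1 it was 0.10 (-0.02 to 0.22) and 0.00 (-0.11 to 0.12).

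For ZFP36 the log2 fold change was -0.18 (SE 0.09, adjusted p = 0.690) in Sema against Ctrl and -0.16 (SE 0.08, adjusted p = 0.901) in SemaLPS against LPS, with adjusted p = 0.115 and 0.148 with the block. It was lower in the semagacestat-treated culture in 6 of 6 same-numbered pairs, by little in SemaLPS-2 against LPS-2 (36.9 and 37.2 CPM). How many of all genes did the same was not counted. The average over both comparisons, a contrast added after these values were seen, was -0.17 (SE 0.06, adjusted p = 0.418, 0.053% of genes called). With the block it was -0.17 (SE 0.04, adjusted p = 0.0144, 6.82% of genes called). That blocked call was lost without Ctrl-2 or LPS-1, with adjusted p from 0.00352 to 0.0549 over the 12 fits that left out 1 culture. None of the other 4 genes passed in the average, with adjusted p of 0.26 or above with the block. In the thinned cells the ZFP36 share was 26.0 ± 1.4% in Sema against 28.9 ± 2.1% in Ctrl (SD, n = 3). The cultures nearly touched, with a highest Sema value of 26.9% and a lowest Ctrl value of 27.5%. How many of all genes had shares that separated as far was not counted. It was 25.1 ± 2.8% in SemaLPS against 27.3 ± 0.74% in LPS for ZFP36, with overlap (SD, n = 3).

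The LPS response of the 5 genes was not shown to depend on the inhibitor. The interaction, the LPS change under semagacestat minus the LPS change under DMSO, was 0.02 for ZFP36, -0.01 for ZFP36L1, -0.0015 for ZFP36L2, -0.09 for ZC3H12A and -0.10 for ELAVL1 on the log2 scale, each with adjusted p = 1.0. Its 95% interval ran from -0.32 to 0.14 for ZC3H12A and from -0.26 to 0.07 for ELAVL1. Without a block edgeR called 0 genes for the interaction (553 had an unadjusted p under 0.05), DESeq2 called 1, and edgeR with the block called 10 (0.0662% of genes).

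Of 6 transcripts that these proteins act on, all rose with LPS, 4 of them by more than ZC3H12A and NFKBIZ and PTGS2 by less. TNF averaged 158 ± 49 CPM in LPS against 9.10 ± 0.36 in Ctrl, and IL1B 2084 ± 245 against 91.3 ± 5.7 (SD, n = 3). The chemokine CXCL8 averaged 1154 ± 116 against 33.0 ± 5.8, and NFKBIZ, an atypical IκB protein and regnase-1 target, 94.6 ± 7.5 against 10.4 ± 1.6. IL6 and PTGS2, the prostaglandin synthase gene, were scarce, at 12.4 ± 3.8 against 0.329 ± 0.056 and 3.72 ± 0.84 against 0.659 ± 0.239. The log2 fold changes were 4.12 for TNF, 4.51 for IL1B, 5.13 for CXCL8, 3.19 for NFKBIZ, 5.21 for IL6 and 2.49 for PTGS2, each with adjusted p of 3.41e-07 or less in LPS against Ctrl.

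The lists chosen for what the proteins bind moved almost wholly upward. Of 25 AU-rich cytokine and early transcripts 23 were tested, of which 20 rose and 2 fell with LPS, with a median log2 fold change of 3.91 against -0.02 over all genes. The chemokines CCL20 (5.52) and CCL4 (4.87) and IL1B (4.51) had the smallest adjusted p. The list was drawn up from known AU-rich transcripts, and all 25 hold an ATTTA in the annotated 3′ untranslated region. Of 15 regnase-1 targets 14 were tested, 13 rose and 0 fell, with a median of 3.48. IL1B, NFKBIZ and the transferrin receptor gene TFRC (1.87, below that median) had the smallest adjusted p at 20 or more CPM. These lists hold genes picked as inflammatory, and 6 of them stand in both. They were chosen with earlier results of these data known, so their counts and medians are descriptions. Over all genes tested 30.3% were called higher and 28.9% lower.

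The machinery that the binding proteins recruit had medians much nearer 0. Among 19 CCR4-NOT and other deadenylase genes 6 rose and 6 fell with LPS (median -0.06), and the changes with the smallest adjusted p were in the adaptors TOB1 (-0.93), BTG2 (0.98) and BTG1 (-0.62), which link the deadenylase to its substrates. Of 15 decapping and 5′ decay genes 9 rose and 3 fell (median 0.19), with LSM6 at 0.45, DCP1A at 0.64 and PATL1 at 0.40. Of 16 genes of the RNA exosome and its cofactors, which degrade RNA from the 3′ end, 10 rose and 1 fell (median 0.29), with the nuclease DIS3 at 0.70 and the core subunits EXOSC7 at 0.44 and EXOSC4 at 0.57. The background in either direction was 30.3% higher and 28.9% lower.

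**Figure D4:**
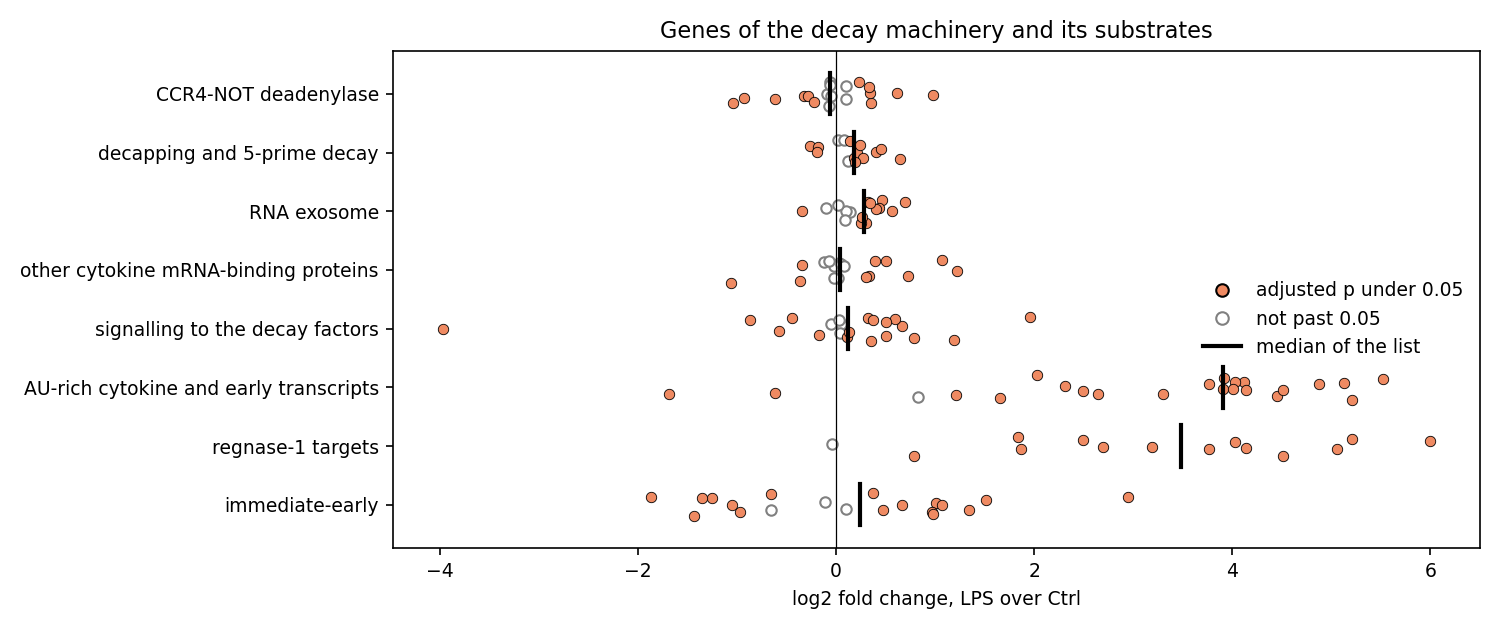
Log2 fold change of LPS over Ctrl for the tested genes of 8 lists; filled dots passed an adjusted p of 0.05 in the edgeR fit without a block, open dots did not, and the black bar is the median of a list. The deadenylase, decapping and exosome lists have medians of -0.06, 0.19 and 0.29, while the AU-rich and regnase-1 target lists have medians of 3.91 and 3.48.

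Other proteins that bind cytokine transcripts were mixed, with 7 higher and 3 lower of 18 tested. The counts here are read against 30.3% of all genes called higher and 28.9% called lower in LPS against Ctrl. ARID5A, which protects IL6 mRNA from regnase-1, fell by 1.06 on the log2 scale, while N4BP1, a relative of the regnase nucleases (0.73), and ZC3H12C, regnase-3 (1.07), rose. Of 22 genes that signal to the decay factors 12 rose and 5 fell, among them the NF-κB adaptors TANK (1.19) and BCL10 (0.59) and the kinase TBK1 (0.51), which rose. Among 20 immediate-early genes, which share rapid induction and short-lived transcripts with ZFP36, 10 rose and 7 fell. MYC (1.35), JUNB (1.01) and BTG2 (0.98) were the called genes with the smallest adjusted p at 20 or more CPM.

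With the inhibitor few genes of these lists passed. Without the block EGR3, a growth-factor-responsive transcription factor, fell by 0.73 in Sema against Ctrl (5.43 ± 0.73 against 8.97 ± 0.25 CPM, adjusted p = 0.0481). DUSP1, the phosphatase that switches off the p38 kinase pathway that restrains ZFP36 protein, fell by 0.47 in SemaLPS against LPS (35.3 ± 3.8 against 49.0 ± 1.7 CPM, adjusted p = 0.0368; SD, n = 3). DUSP1 was 23.3 ± 0.35 in Sema against 30.8 ± 1.3 in Ctrl (log2 fold change -0.40, adjusted p = 0.0947, and 0.00251 with the block). With the block 6 immediate-early genes fell and 0 rose in Sema against Ctrl, and 2 fell and 0 rose in SemaLPS against LPS. The block also gave 4 AU-rich list members that fell in Sema against Ctrl (CXCL8, CCL4, PLAUR and PIM3) and 3 in SemaLPS against LPS (IL1B, CCL20 and PLAUR), with 0 that rose in either. In Sema against Ctrl it further called 2 decapping genes (LSM2 and LSM5) and 1 exosome gene (EXOSC8) that rose, and 1 deadenylase gene (TOB1) and 3 signalling genes (DUSP1, MALT1 and YWHAZ) that fell. In SemaLPS against LPS the deadenylase adaptor BTG1, DUSP1 among the signalling genes and IL1B among the regnase-1 targets fell. Over all genes that fit called 1.84% higher and 1.56% lower in Sema against Ctrl, and 1.28% higher and 0.623% lower in SemaLPS against LPS. Fitted on the 2 conditions of a comparison alone, without the block, 0 genes were called in either comparison, so the calls of EGR3 and DUSP1 were lost.

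Cells of 1 culture were also compared by whether they held ZC3H12A. Each LPS-treated culture was split, after thinning every cell to 10000 UMIs, into 561 to 769 cells with a ZC3H12A UMI and 547 to 795 without. In the 6 cultures the cells with ZC3H12A held 1.45 to 2.31 times as much TNF per cell, 1.50 to 1.82 times as much IL1B, 1.53 to 1.77 times as much CXCL8 and 1.32 to 1.53 times as much NFKBIZ. IL6 was 1.78 to 2.65 times as high, on 22 to 135 UMIs a side. The same ratio was 0.966 to 1.04 for actin (ACTB), 0.885 to 1.06 for the macrophage receptor gene CSF1R, 0.837 to 1.17 for ZFP36 and 0.893 to 1.09 for ELAVL1. PTGS2 was 0.726 to 1.55 times as high, on 13 to 29 UMIs a side. When cells were thinned to 5000 UMIs the mean ratio for IL6 in LPS was 1.24 in place of 2.04. Ratios above 1 for the cytokines and NFKBIZ were not limited to LPS-treated cultures. In the 6 Sema and Ctrl cultures, with 80 to 145 cells with a ZC3H12A UMI and 933 to 1499 without, the ratio was 1.33 to 3.38 for TNF, 1.55 to 3.23 for IL1B and 1.78 to 3.00 for NFKBIZ. For CXCL8 it was 0.712 in Sema-2 and 1.19 to 3.06 in the other 5. These rest on 12 to 34 UMIs of TNF or NFKBIZ per culture in the cells with ZC3H12A, and the ratio for ACTB was 1.01 to 1.06. The 12 cultures were pooled, and the part of LPS-treated cells assigned to a wrong culture in these ratios was not tested.

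**Figure D5:**
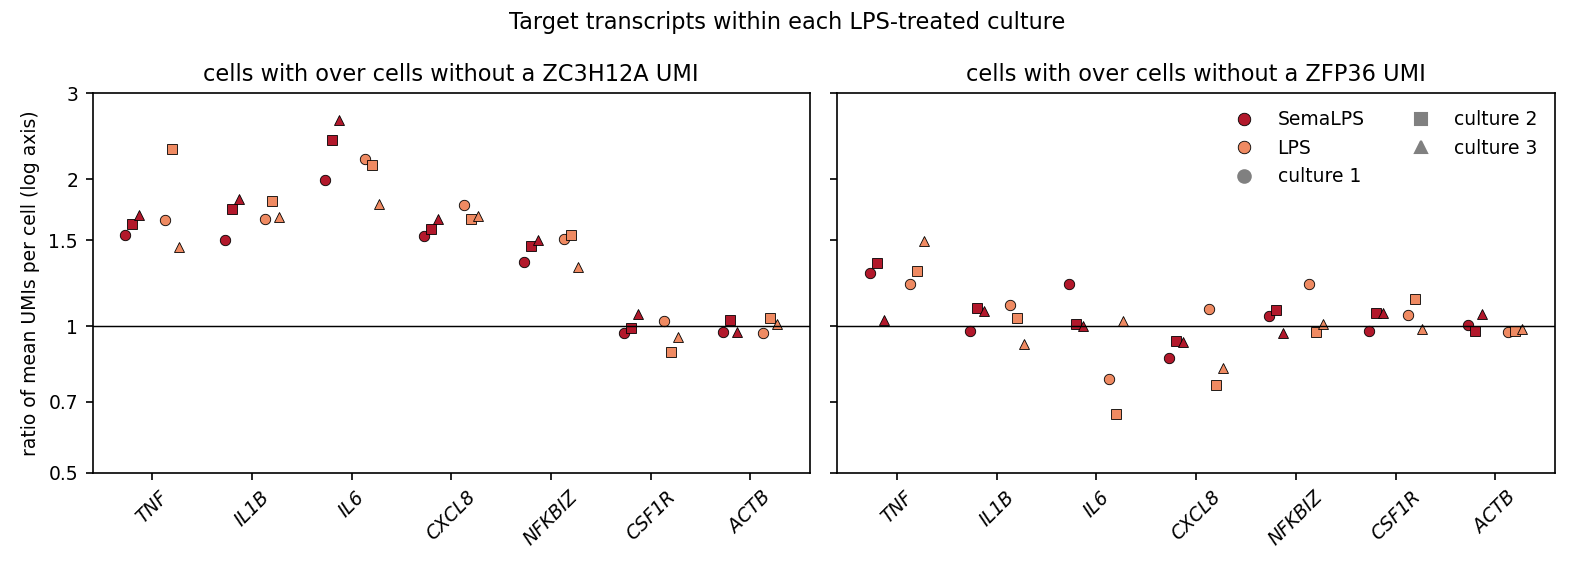
Ratio of mean UMIs per cell (log axis) between cells with and cells without a UMI of ZC3H12A (left) or ZFP36 (right), for 7 transcripts in each LPS-treated culture, with SemaLPS left of LPS; shapes mark the culture number and the line marks a ratio of 1. With ZC3H12A the cytokine transcripts and NFKBIZ lie between 1.32 and 2.65, and ACTB and CSF1R lie near 1. PTGS2 (0.726 to 1.55 with ZC3H12A) is not drawn.

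A split by ZFP36 gave a different picture, on fewer UMIs of the splitting gene. Before thinning, LPS-treated cultures averaged 0.851 to 1.12 UMIs of ZFP36 per cell, against 2.48 to 2.96 of ZC3H12A. The part of this scarcity in the difference between the splits was not tested. With 273 to 427 cells with a ZFP36 UMI per culture and 834 to 1137 without, TNF was 1.03 to 1.49 times as high in cells with ZFP36 and above 1 in each of the 6 cultures. ACTB was 0.971 to 1.06 and CSF1R 0.977 to 1.14 times as high in the same split, and in SemaLPS-3 the TNF ratio of 1.03 was below those of ACTB and CSF1R (both 1.06). IL1B (0.919 to 1.10), CXCL8 (0.758 to 1.08), NFKBIZ (0.967 to 1.22) and IL6 (0.659 to 1.22) lay on both sides of 1. ZC3H12A itself was 0.873 to 1.06 times as high in cells with ZFP36. The split is by detection of 1 or more UMIs in thinned cells of 1 culture, so these ratios are descriptions of cells that share a library, with no test.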

How the data were processed

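Single-cell RNA was counted in 2 libraries (10x 3′ v3.1 chemistry, per the labels' protocols) made from a pool of 12 hashtagged cultures. The authors deposited unnormalised UMI counts of genes and hashtags for called cells. The build hg38, Seurat 4.1.1 and Cell Ranger 3.0.2 appear per the submitters' processing notes, while the file headers name Cell Ranger 6.0.1. Which gene annotation was used is not given in the sources at hand. Cells were collected with actinomycin D at 5 µM, which blocks new transcription, per the labels' protocols.

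Barcodes were assigned in each library by k-means (13 clusters) followed by a cutoff per hashtag, the 99th percentile of its fitted negative binomial background. Of 28943 barcodes 21945 carried 1 hashtag, 6511 more than 1 (treated as doublets and removed) and 487 none. Kept cells had 1000 or more genes and no more than 10% of UMIs from mitochondrial genes. Tests used counts summed per culture in edgeR 4.0.16 under R 4.3.3 (TMM, filterByExpr, quasi-likelihood, all 12 cultures, Benjamini-Hochberg adjustment at 0.05 over 15099 genes). Standard errors come from each log2 fold change and its F statistic. The planned fit had no block. Deviations from condition means, over 5281 genes, correlated between cultures of the same number at 0.442 to 0.742, against -0.547 to 0.165 for other numbers. What the numbers mean is not labelled; the pairing is thus read from the data alone. For shares of cells, thinning was computed as each cell's chance of keeping at least 1 UMI without replacement, averaged over cells. For the splits by ZC3H12A or ZFP36, UMIs were drawn at random without replacement. Exact permutation tests used scipy 1.17.1. The edgeR fit was tested on simulated counts.

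The 5 genes, the 8 pathway lists and the marker lists were chosen with earlier results of these data known. Named list genes are those with the smallest adjusted p in LPS against Ctrl at a mean of 20 or more CPM (up to 3 per list), those passing in an inhibitor comparison, and 6 target transcripts. Genes named for a block call in an inhibitor comparison were chosen after their values were seen, as were the lists of markers at 0. SKIC2, SKIC3 and SKIC8 appear in the files under older symbols and were matched by gene ID. Protein sequences were not used here. Alternatives tried were DESeq2 1.42.0 (its size factors and its Wald test), no low-count filter, the block, only the conditions compared, a rule of hashtag ratios, a ceiling of 20% mitochondrial UMIs, 500 genes, each library alone, cells with no MKI67 or TOP2A UMI and each culture left out.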

Additional observations from a re-analysis of the deposited data

How the results depend on the processing

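None of the 35 alternatives scaled the counts to total UMIs alone. ZFP36L1, ZFP36L2, ZC3H12A and ELAVL1 kept direction and call in LPS against Ctrl under all 35 alternatives (log2 fold changes -0.63 to -0.46, -0.90 to -0.75, 3.11 to 3.33 and 0.30 to 0.42). ZFP36 passed there with the replicate block (0.15). Leaving out 1 culture, it ranged from 0.10 to 0.23 without the block, passing without Ctrl-2 (0.23, adjusted p = 0.0406), and from 0.0857 to 0.21 with it. In SemaLPS against Sema it ranged without the block from 0.0739 (adjusted p = 0.469) without SemaLPS-2 to 0.26 (0.011) without SemaLPS-3, where it passed. In Sema against Ctrl it ranged from -0.22 to -0.0961 without the block and from -0.23 to -0.14 with it, passing with the block without Ctrl-1 (-0.23, adjusted p = 0.034). In SemaLPS against LPS it ranged from -0.26 to -0.0716 without the block and from -0.22 to -0.10 with it, and passed in none of these fits.

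Counts of genes called for the inhibitor depended on the fit. For Sema against Ctrl (2 genes) DESeq2's Wald test called 17, no low-count filter 26, the replicate block 513 and a mitochondrial ceiling of 20% 1, while the 2 conditions alone, either library alone and cells without MKI67 or TOP2A UMIs called 0. For SemaLPS against LPS (2 genes) the counts were 9 by the Wald test, 12 with no filter, 288 with the block and 1 in library 2, and 0 with the conditions alone, the 20% ceiling or library 1. For the interaction (0 genes) the Wald test and no filter called 1 each and the block 10. Leaving out 1 culture gave 0 to 4, 0 to 3 and 0 to 1 genes without the block, and 67 to 587, 125 to 360 and 0 to 41 with it. The cause was not tested.

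Reversals of sign touched values near 0 with no call. ZFP36L1 in Sema against Ctrl was -0.00198 with DESeq2 size factors, -0.00185 by the Wald test, -0.0248 with the 20% ceiling and -0.0126 in library 1. ZC3H12A there was 0.0468 in library 2. In SemaLPS against LPS, ZFP36L1 was 0.00561 with no filter, 0.0220 in library 1 and 0.0226 in cells without MKI67 or TOP2A. ELAVL1 there was -0.0194 in library 2, -0.0235 in those cells and -4.18e-05 in the fit of the conditions compared. For the interaction, library 1 gave -0.0203 for ZFP36, 0.0346 for ZFP36L1, 0.00790 for ZFP36L2 and 0.0127 for ZC3H12A, the 20% ceiling 0.0208 for ZFP36L1, and cells without MKI67 or TOP2A 0.00897 for ZC3H12A. ZFP36L2 was 0.00608 with DESeq2 size factors, 0.00570 by the Wald test and 0.00546 with no filter. The average inhibitor effect of ZFP36L1 was -0.00442 with DESeq2 size factors, -0.00448 by the Wald test, -0.0144 with the ceiling and -0.00364 in library 2. Without 1 culture, values without the block ran from -0.0621 to 0.0713 (ZFP36L1), -0.0212 to 0.0873 (ZFP36L2) and -0.0740 to 0.0682 (ZC3H12A) in Sema against Ctrl. In SemaLPS against LPS they ran from -0.10 to 0.0779 (ZFP36L1), -0.0352 to 0.11 (ZFP36L2) and -0.0129 to 0.0334 (ELAVL1). For the interaction they ran from -0.0782 to 0.11 (ZFP36), -0.11 to 0.0700 (ZFP36L1) and -0.0740 to 0.0719 (ZFP36L2), and for the average effect of ZFP36L1 from -0.0464 to 0.0429.

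With 3 cultures a condition, exact tests of shares could not pass, and IL6 and PTGS2 were too scarce for firm ratios between cells.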
